A study of Mus musculus with 44 samples.

Results

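RNA of whole, unsorted cultures of mouse calvarial osteoblasts, the bone-forming cells of the skull roof, was compared between day 17 and day 7 of culture. The arrays were chosen by their labels: those marked unsorted on array A of an Affymetrix U74 set, 3 at day 17 (Exp100, Exp105 and Exp106) and 3 at day 7 (Exp99, Exp101 and Exp103). They are 6 of the 18 A arrays and of 44 arrays in all, and the other 12 A arrays hold GFP-positive and GFP-negative cells sorted from the same experiments. Cells of both groups came from newborn mice 7 days old and grew for 7 days in DMEM with 10% FCS. The day 17 cultures were then kept with ascorbic acid and beta-glycerophosphate from day 7 until day 17, and per the series title they carried the pOBCol2.3GFP transgene, driven by a collagen promoter fragment used to mark more mature osteoblasts. The day 7 cultures received no additions and carried pOBCol3.6GFP, driven by a longer fragment that is active earlier. Day, additions and transgene line changed together, so their parts in any difference cannot be told apart. Apart from the experiment names, no label states that the 3 samples of a group came from separate cultures or litters, so every p-value refers only to the variation among these arrays, which may be technical.

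Osteoblasts lay down a matrix of type I collagen and then mineralise it. Ascorbic acid is a cofactor of the enzymes that hydroxylate collagen, and beta-glycerophosphate is a phosphate source for mineral, released by alkaline phosphatase. As the cells mature they are known to add bone sialoprotein and other mineral-binding proteins, and cells embedded in the matrix as osteocytes make Dmp1. A digest of calvaria also brings in other cells, among them macrophages, fibroblasts and muscle precursors, and no sorting step removed them here. In bulk RNA, fewer cells of a type and less RNA per cell cannot be told apart.

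The day 17 array of Exp106 stood apart. Its values correlated with those of the other 5 unsorted arrays at r = 0.829 to 0.870 across probe sets, where the other 5 correlated with each other at 0.934 to 0.970. As deposited it had 28 probe sets at the lowest value, against 175 to 302 on the others, and its brightest probe set read 292811, against 121244 to 141770. Its source label, like that of Exp105, reads calvaria where the other unsorted samples read cell culture. Results are therefore given with all arrays, and for each list whose calls differ also without the 3 A arrays of Exp106.

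Of 7455 probe sets tested 426 (5.71%) passed at an adjusted p under 0.05. Of 5639 genes, each read by its brightest probe set, 341 passed (6.05%), of which 178 rose at day 17 (3.16%) and 163 fell (2.89%). Levels are quantile-normalised intensities, and differences are day 17 minus day 7 on a log2(intensity + 32) scale, with the standard error (SE) of a limma fit and n = 3 arrays each. Of the genes that passed, 153 were at least 2-fold higher and 111 at least 2-fold lower, and 25 were at least 8-fold higher, against 4 at least 8-fold lower. Without Exp106, 330 of 5381 genes rose (6.13%) and 412 fell (7.66%), and 322 of the 341 genes passed again with the same sign and 0 had the opposite sign. The median over all genes was -0.10. Over probe sets it was -0.09, against 0.05 on the deposited scale and -0.18 after median centring. On the deposited scale 206 probe sets were higher and 105 lower, against 227 and 199 here, so small differences near these medians have no settled direction.

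The largest rise of a named gene was in bone sialoprotein. Of 18 genes of bone matrix and mineral tested, 4 rose and 1 fell (27.8%, against 6.05% of all genes), with a median of 0.59. Without Exp106 they were 6 and 1, with a median of 0.44. Ibsp, the gene of bone sialoprotein, had intensities of 37817, 56897 and 59785 at day 17 in Exp100, Exp105 and Exp106, against 124, 502 and 957 at day 7 in Exp99, Exp101 and Exp103. The day 17 arrays were close together and far above every day 7 array, while the day 7 arrays spread widely at a low level. The difference was 6.86 ± 0.88 (SE; adjusted p = 0.000421), a 116-fold rise, and a second probe set of Ibsp differed by 1.71 without passing. Alpl, the alkaline phosphatase that releases phosphate, had 9491, 15946 and 4804 at day 17, against 310, 748 and 663 at day 7. Every day 17 value exceeded every day 7 value, with Exp106 the lowest of the day 17 arrays, and the difference was 3.99 ± 0.45 (adjusted p = 0.000142).

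Dmp1, an acidic matrix protein of osteocytes, split the day 17 arrays. It had 6582 and 4287 in Exp100 and Exp105 but 221 in Exp106, against 107, 107 and 108 at day 7. The groups did not overlap, yet the third day 17 array lay much nearer to the day 7 level than to the other day 17 arrays. The difference was 3.79 ± 1.04 (adjusted p = 0.0419) and 5.35 without Exp106 (adjusted p = 4.53e-05). The call was lost when Exp100, Exp105, Exp99, Exp101 or Exp103 was left out. Col11a2, a chain of type XI collagen, had 2483, 3834 and 1474 at day 17 and 87.1, 129 and 109 at day 7, a difference of 4.13 ± 0.49 (adjusted p = 0.000196). Slc20a1, a phosphate transporter, went the other way, with 1709, 2178 and 861 at day 17 and 4680, 3695 and 4409 at day 7 (-1.50 ± 0.39, adjusted p = 0.0375). Leaving out any 1 unsorted array other than Exp105 ended that call. Phex, an endopeptidase of osteocytes and osteoblasts, was too dim to be tested, at 239, 376 and 69.3 at day 17 and 87.1, 116 and 77.3 at day 7. Spp1, Bglap and Runx2 have no probe set that names them alone and were not analysed here.

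The most abundant matrix genes did not pass. Col1a1, a chain of type I collagen, had a deposited intensity of 141195, 141770 and 292811 at day 17 and 96800, 108878 and 87300 at day 7. It was the brightest probe set on all 3 day 17 arrays, so quantile normalisation gave it one value there (149225), and the difference was 0.50 ± 0.30 (adjusted p = 0.331), or 0.89 on the deposited scale (adjusted p = 0.205). Col1a2 had 116087, 120546 and 132817 at day 17 and 93168, 94984 and 62174 at day 7 (0.59 ± 0.25, adjusted p = 0.184). Both genes were higher on every day 17 array than on any day 7 array, but neither passed. Sparc, a collagen-binding glycoprotein, had 39914, 45899 and 44535 at day 17 and 35733, 43832 and 35116 at day 7, with overlapping groups (0.19 ± 0.22, adjusted p = 0.598, and -0.05 after median centring). The 13 bone genes that did not pass ranged from -0.73 (Serpinf1, whose second probe set differed by 1.03) to 1.98 (Omd). Omd, a keratan sulphate proteoglycan of bone, passed without Exp106 (2.41, adjusted p = 0.0195). Of the markers of the labelled cell type, type I collagen and Sparc were bright at both days and Ibsp and Alpl at day 17. At day 7 Dmp1 lay below the median deposited intensity of its arrays (485.5 to 640), as did Ibsp in Exp99 and Exp101, and with no detection calls their presence there is not shown.

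**Figure D1:**
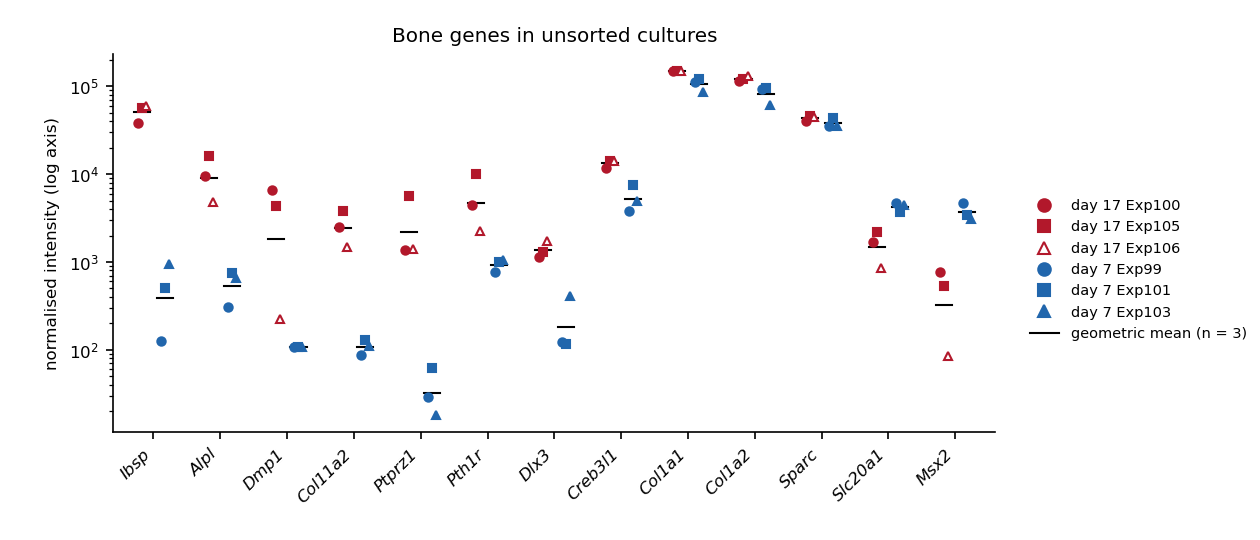
Normalised intensity (log axis) of bone genes on each unsorted array, with day 17 in red left of day 7 in blue, an open triangle for Exp106 and a bar for the geometric mean (n = 3 arrays each). Ibsp and Alpl separate the days on every array, Col1a1 and Col1a2 sit high at both days, and Dmp1 in Exp106 (221) lies near the 107 to 108 of day 7.

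The promoters of Ibsp and Dmp1 are shown because these genes mark the matrix that differed between days. The sequences are RefSeq windows on GRCm38.p6, printed 5′ to 3′ along the gene. Ibsp (chr5:104299037-104299336, + strand) carries TTTATA, the opposite strand of TATAAA and given in capitals, with its first base 28 bases upstream of the start. TATAAA, read on both strands, lies in 13.6% of the 32851 windows. Dmp1 (chr5:104202367-104202666, + strand, the more downstream of its starts) carries ACCACA, the opposite strand of TGTGGT and in capitals, 164 bases upstream. The window of its other start (chr5:104197325-104197624, not shown) holds these letters on neither strand. TGTGGT is the core letters bound by Runx factors, regulators of osteoblasts. It lies in 16.8% of all windows and 18.9% of genes with a window. Of the passing bone and regulator genes that rose, it lies in 1 of the 6 that have a window, and in 1 of their 10 windows. Those that fell were not read. A match is a run of letters, not a shown binding site.
Ibsp: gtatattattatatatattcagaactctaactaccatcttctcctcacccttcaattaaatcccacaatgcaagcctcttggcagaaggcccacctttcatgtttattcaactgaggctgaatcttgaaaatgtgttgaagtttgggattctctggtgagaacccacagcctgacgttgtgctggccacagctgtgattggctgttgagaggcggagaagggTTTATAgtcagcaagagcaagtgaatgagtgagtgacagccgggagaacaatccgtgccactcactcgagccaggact
Dmp1: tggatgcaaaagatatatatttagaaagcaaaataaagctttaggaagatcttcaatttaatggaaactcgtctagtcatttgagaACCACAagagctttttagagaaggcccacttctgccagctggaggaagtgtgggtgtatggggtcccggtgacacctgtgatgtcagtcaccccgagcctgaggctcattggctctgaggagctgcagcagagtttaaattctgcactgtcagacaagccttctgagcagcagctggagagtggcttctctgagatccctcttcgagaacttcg

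Among 24 regulators of osteoblasts, 4 rose and 2 fell (25%, against 6.05% of all genes), with a median of 0.20. Without Exp106, where 6.13% of all genes rose and 7.66% fell, 5 rose and 3 fell. Dlx3, a homeobox factor of the osteoblast lineage, had 1152, 1294 and 1730 at day 17 and 122, 116 and 409 at day 7 (2.70 ± 0.60, adjusted p = 0.0173). Pth1r, the receptor for parathyroid hormone, had 4476, 10174 and 2226 at day 17 and 773, 989 and 1064 at day 7 (2.28 ± 0.52, adjusted p = 0.0183). Creb3l1, a stress-activated factor that switches on collagen and secretory genes, had 11864, 13971 and 13997 at day 17 and 3847, 7464 and 4953 at day 7 (1.34 ± 0.26, adjusted p = 0.00705). All 3 were higher on each day 17 array than on any day 7 array. Igf1, a growth factor, also rose (1.14 ± 0.27, adjusted p = 0.021). Msx2, a homeobox factor of earlier osteoblast precursors, fell to 759, 526 and 85.7 at day 17, against 4706, 3471 and 3091 at day 7 (-3.32 ± 0.79, adjusted p = 0.0228). Without Exp106, where it was lowest, the fall was -2.52 (adjusted p = 0.000993). Cdh11, the osteoblast cadherin, fell by 0.84 ± 0.21 on the log2 scale (adjusted p = 0.0276). Of the 6 passing regulators, only Creb3l1 passed when each of the 6 unsorted arrays was left out in turn.

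A phosphatase and antagonists of signalling rose beside them. Ptprz1, a receptor tyrosine phosphatase that binds pleiotrophin, had 1375, 5582 and 1416 at day 17 and 28.6, 62.5 and 18.1 at day 7 (5.09 ± 0.53, adjusted p = 0.0001). Dkk1, a secreted inhibitor of Wnt signalling, had 1054, 1041 and 421 at day 17 and 74.2, 25.1 and 33.9 at day 7 (3.46 ± 0.62, adjusted p = 0.00441). Neither gene reached 100 on a day 7 array, so the size of these rises depends on the 32 added before taking logs. Ptprz1 differed by 5.79 with a smaller added value (8) and by 3.85 with a larger one, passing in both cases. Of 23 Wnt pathway genes, 3 rose and 1 fell (17.4%, against 6.05% of all genes), with a median of 0.31. Without Exp106 2 rose and 1 fell, and Sfrp4 missed the threshold (1.67, adjusted p = 0.0637). Of the 4 calls with all arrays, that of Dkk1 alone held in all 6 omissions of 1 unsorted array. The others were the secreted Wnt binders Sfrp2 (1.80) and Sfrp4 (1.83), which rose, and the cytoplasmic relay Dvl2, which fell by 1.85 on the log2 scale. Of 31 BMP and TGF-beta genes, 2 rose and 1 fell (9.68%, not far above the 6.05% of all genes), and 4 rose and 2 fell without Exp106. Their median was -0.03 and turned positive on the deposited scale. Gdf10, a ligand of that family, had 5116, 4198 and 3886 at day 17 and 713, 1466 and 652 at day 7 (2.27 ± 0.28, adjusted p = 0.000317). Id2, a target of BMP signalling, rose by 0.82, and Acvr2a, an activin receptor, fell by 1.25 on the log2 scale.

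Of 28 collagen and matrix assembly genes, 4 rose and 0 fell, with a median of 0.23 (6 and 0 without Exp106, median 0.46). The calls with all arrays made up 14.3% of the list, against 6.05% of all genes. The 4 were elastin (Eln, 1.40), the collagen prolyl hydroxylase subunit P4ha2 (1.38) and the collagen-binding proteoglycans Lum and Fmod (0.94 each). None of these 4 calls held in all 6 single-array omissions. Of 22 fibroblast and progenitor genes, 4 rose and 2 fell (27.3%), with a median of 0.19 (5 and 3 without Exp106). Penk, the enkephalin precursor, had 7338, 14631 and 16905 at day 17 and 1198, 2447 and 1295 at day 7 (2.94 ± 0.44, adjusted p = 0.00154). Gas6, a ligand of the TAM receptors, rose by 2.05 and Fap, a surface protease of fibroblasts, by 1.62. Sema3c, a secreted guidance cue, fell to 500, 480 and 42.9 at day 17, against 1802, 1816 and 1683 at day 7 (-2.72 ± 0.67, adjusted p = 0.0276), with Exp106 again the lowest. Matn4, a matrilin of cartilage and other matrices, rose to 28481, 13997 and 10624 at day 17, against 1827, 3102 and 2330 at day 7 (2.76 ± 0.38, adjusted p = 0.000841). It was the only passing gene of 5 chondrocyte markers tested, while Col2a1, Acan, Matn1 and Col10a1 were too dim to test.

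Macrophage genes had the highest share of rises among the 23 lists. Of 30 tested, 17 rose and 0 fell, against 3.16% and 2.89% of all genes, and 29 lay above 0 with a median of 2.37. Without Exp106, 21 rose and 0 fell, with a median of 2.76. Summed over the 35 genes of the list on array A, tested or not, the day 17 arrays had 327527, 274916 and 290277. The day 7 arrays had 80636, 47671 and 46003. The groups did not overlap for 27 of the 30, where 13.7% of all genes were higher without overlap. The passing genes rose by 2.11 to 3.76, and 11 of the 17 passed when each unsorted array was left out in turn. Ptprc, Aif1, Fcgr3, Ccr2 and Pf4, markers of leukocytes or of macrophages and platelets, were too dim to test.

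Ctss, the lysosomal cathepsin S, had 43351, 27564 and 37207 at day 17 and 4479, 2494 and 1531 at day 7 (3.76 ± 0.57, adjusted p = 0.00164). Lyz2, lysozyme of myeloid cells, had 45519, 40683 and 55506 at day 17 and 11915, 4805 and 4817 at day 7 (2.84 ± 0.50, adjusted p = 0.00405). Csf1r, the receptor for the macrophage growth factor, had 13877, 7214 and 5203 at day 17 and 1599, 909 and 826 at day 7 (2.88 ± 0.50, adjusted p = 0.00342). Exp99 was the highest of the day 7 arrays for all 3 genes, and still below every day 17 array. The chains of complement C1q, made mainly by macrophages, rose together, by 3.21 (C1qa), 3.75 (C1qb) and 3.55 (C1qc). Mrc1, the mannose receptor, had 10649, 7823 and 5554 at day 17 and 1338, 432 and 411 at day 7 (3.57 ± 0.68, adjusted p = 0.00643). Tyrobp, a myeloid signalling adaptor, had 11720, 9959 and 7018 at day 17 and 2147, 779 and 1033 at day 7 (2.93 ± 0.60, adjusted p = 0.0107). For Csf1r, Mrc1 and Tyrobp Exp100 was the highest and Exp106 the lowest day 17 array. Cd53, a leukocyte tetraspanin, missed the threshold (2.85, adjusted p = 0.0578) and passed without Exp106 (2.94, adjusted p = 0.0155).

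**Figure D2:**
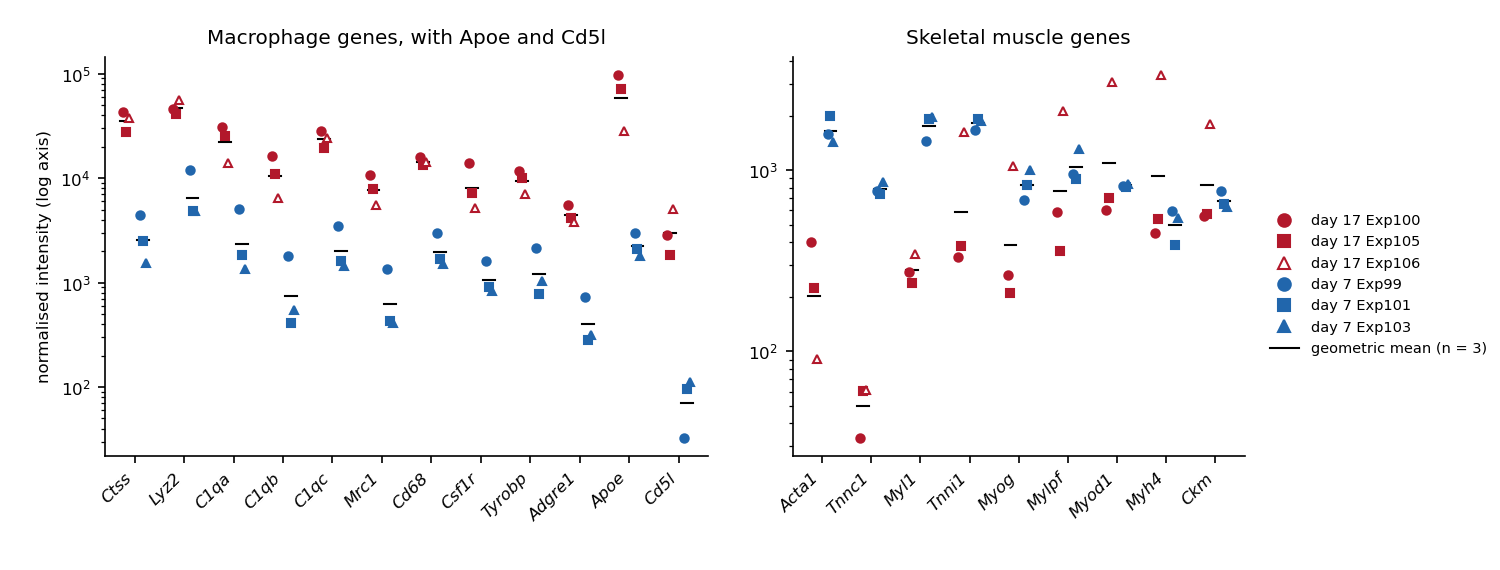
Normalised intensity (log axis) of macrophage and muscle genes on each unsorted array, with day 17 in red left of day 7 in blue, an open triangle for Exp106 and a bar for the geometric mean (n = 3 arrays each). Ctss and Csf1r lie higher on each day 17 array, Tnnc1 and Myl1 lie lower, and Myog in Exp106 (1050) lies above all 3 day 7 values.

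Other genes among the largest rises are known from macrophages too, although they were in no macrophage list. Apoe, the lipid carrier apolipoprotein E, had 96672, 71772 and 28481 at day 17 and 3007, 2103 and 1810 at day 7 (4.67 ± 0.76, adjusted p = 0.00232), a 25.5-fold rise. Cd5l, a secreted protein of tissue macrophages, had 2843, 1840 and 5082 at day 17 and 32.6, 95.6 and 111 at day 7 (4.84 ± 0.81, adjusted p = 0.0028). Arg1, arginase, had 629, 11393 and 1841 at day 17 and 57.4, 24.2 and 131 at day 7 (4.69 ± 0.89, adjusted p = 0.00646). The day 17 values of Arg1 spread widely, with Exp105 far above the others, but none met the day 7 range. Stab1, a scavenger receptor, rose by 3.61 and Pla2g7, a secreted phospholipase, by 3.45. Of 6 genes of osteoclasts, the bone-resorbing cells of the same lineage, 0 passed, where 6.05% of all genes did, so this count is near the background. Their median was 0.62, at 0.67 for Acp5 (adjusted p = 0.228) and 0.57 for Ctsk (adjusted p = 0.115). Tcirg1, a proton pump subunit, passed without Exp106 (0.97, adjusted p = 0.0326), against 1.04 with it (adjusted p = 0.0851). Whether the number of macrophages had a part in the other differences between days was not tested.

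The promoters of C1qb and C1qc are shown because the C1q genes moved together. Their RefSeq windows on GRCm38.p6 lie at chr4:136886151-136886450 and chr4:136892865-136893164, both on the - strand. Capitals mark GAGGAA or its opposite strand TTCCTC, core letters bound by PU.1, a factor of myeloid cells, 30 bases upstream of the start in C1qb and 193 in C1qc. These letters lie in 28.3% of all windows and 31.3% of genes. Windows were read for 12 of the 17 passing macrophage genes, and the letters lie in 7 of these 12. Csf1r was not among the genes read.
C1qb: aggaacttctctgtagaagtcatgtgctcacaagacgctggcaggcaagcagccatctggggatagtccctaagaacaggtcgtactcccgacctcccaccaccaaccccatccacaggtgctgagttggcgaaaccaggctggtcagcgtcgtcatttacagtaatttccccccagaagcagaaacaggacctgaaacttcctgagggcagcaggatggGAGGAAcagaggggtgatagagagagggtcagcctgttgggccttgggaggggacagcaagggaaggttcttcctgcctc
C1qc: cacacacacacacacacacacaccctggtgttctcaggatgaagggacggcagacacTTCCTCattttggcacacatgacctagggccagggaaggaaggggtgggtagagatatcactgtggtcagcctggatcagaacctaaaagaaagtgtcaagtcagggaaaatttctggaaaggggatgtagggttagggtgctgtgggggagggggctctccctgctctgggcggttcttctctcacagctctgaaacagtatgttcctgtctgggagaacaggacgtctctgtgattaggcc

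Of 15 skeletal muscle genes tested, 0 rose and 3 fell (20%, against 6.05% of all genes). Of the 15, 6 lay above 0 and 9 below, with a median of -0.64. Without Exp106, where 7.66% of all genes fell, 0 of 13 rose and 6 fell. Tnnc1, troponin C of slow and cardiac muscle, had 33.3, 60.3 and 61 at day 17 and 772, 743 and 859 at day 7 (-3.32 ± 0.52, adjusted p = 0.00178). Acta1, skeletal actin, had 404, 224 and 90.3 at day 17 and 1584, 1984 and 1432 at day 7 (-2.82 ± 0.66, adjusted p = 0.021). Myl1, a myosin light chain, had 275, 238 and 346 at day 17 and 1444, 1922 and 1975 at day 7 (-2.51 ± 0.36, adjusted p = 0.00114). The day 7 arrays lay close together and above every day 17 array for all 3 genes, all of them contractile. The calls of Tnnc1 and Myl1 held in all 6 omissions of 1 unsorted array. That of Acta1 was lost when only the unsorted array of Exp106, Exp99, Exp101 or Exp103 was left out. Without all 3 A arrays of Exp106 Acta1 passed (-2.38, adjusted p = 0.000463). Actc1, cardiac actin, and Myl4, an embryonic light chain, did not pass by their brightest probe set (-0.64 and -0.79), while a dimmer probe set of each did (-4.44 and -2.74).

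Exp106 lay above both other day 17 arrays for 11 of the 15 genes of this list. It did so too for 16 of 23 interferon response and 11 of 16 inflammatory genes, but for 4 of 22 fibroblast and progenitor genes. The share over all genes was not counted. Myod1, the factor that commits cells to muscle, had 603, 701 and 3061 at day 17 and 822, 809 and 843 at day 7. Myog, the factor of muscle differentiation, had 265, 209 and 1050 at day 17 and 688, 832 and 997 at day 7 (-1.01 ± 0.60, adjusted p = 0.33). Without Exp106 Myog passed at -1.74 (adjusted p = 0.0167), and so did Tnni1, slow troponin I, at -2.30 (adjusted p = 8.64e-05), against -1.55 with it (adjusted p = 0.0993). Myh4, Ckm and Mylpf, genes of muscle fibres, were likewise higher in Exp106, at 3348, 1795 and 2120, than on any day 7 array. Summed over the 29 genes of the list on array A, tested or not, the day 17 arrays had 14027, 15353 and 24328. The day 7 arrays had 22353, 28621 and 24673, so the groups overlapped only through Exp106. The fit without Exp106 also leaves out its sorted arrays, so calls gained there cannot be assigned to the unsorted array alone. Of 13 smooth muscle genes 0 passed, near the 6.05% of all genes. Their median was -0.59, and -0.04 without Exp106, and Exp106 lay below both other day 17 arrays for 10 of the 13. It lay below both for 32 of 42 cell cycle genes and 3 of 15 skeletal muscle genes. Acta2, smooth muscle actin, differed by -0.67 (adjusted p = 0.16) and Tagln, an actin-binding protein, by -0.63 (adjusted p = 0.342).

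The promoters of Acta1 (chr8:123894726-123895025, - strand) and Myl1 (chr1:66945007-66945306, - strand) are shown for the contractile genes that fell. Capitals mark CAGCTG, which reads the same on both strands and is an E-box bound by muscle factors such as Myod1, 221 bases upstream in Acta1 and 224 in Myl1. It lies in 16.3% of all windows and 18.3% of genes, and in 2 of the 3 muscle genes that fell.
Acta1: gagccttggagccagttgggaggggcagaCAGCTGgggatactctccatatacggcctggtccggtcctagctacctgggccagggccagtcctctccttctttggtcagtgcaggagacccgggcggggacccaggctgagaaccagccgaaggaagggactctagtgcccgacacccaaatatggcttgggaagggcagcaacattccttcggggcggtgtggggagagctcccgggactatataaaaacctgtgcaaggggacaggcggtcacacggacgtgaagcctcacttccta
Myl1: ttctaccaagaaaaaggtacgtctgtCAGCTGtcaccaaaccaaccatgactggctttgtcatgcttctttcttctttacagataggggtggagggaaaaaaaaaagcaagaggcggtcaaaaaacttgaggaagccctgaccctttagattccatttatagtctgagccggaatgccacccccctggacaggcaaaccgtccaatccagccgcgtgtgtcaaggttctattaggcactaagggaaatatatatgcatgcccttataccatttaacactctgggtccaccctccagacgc

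**Figure D3:**
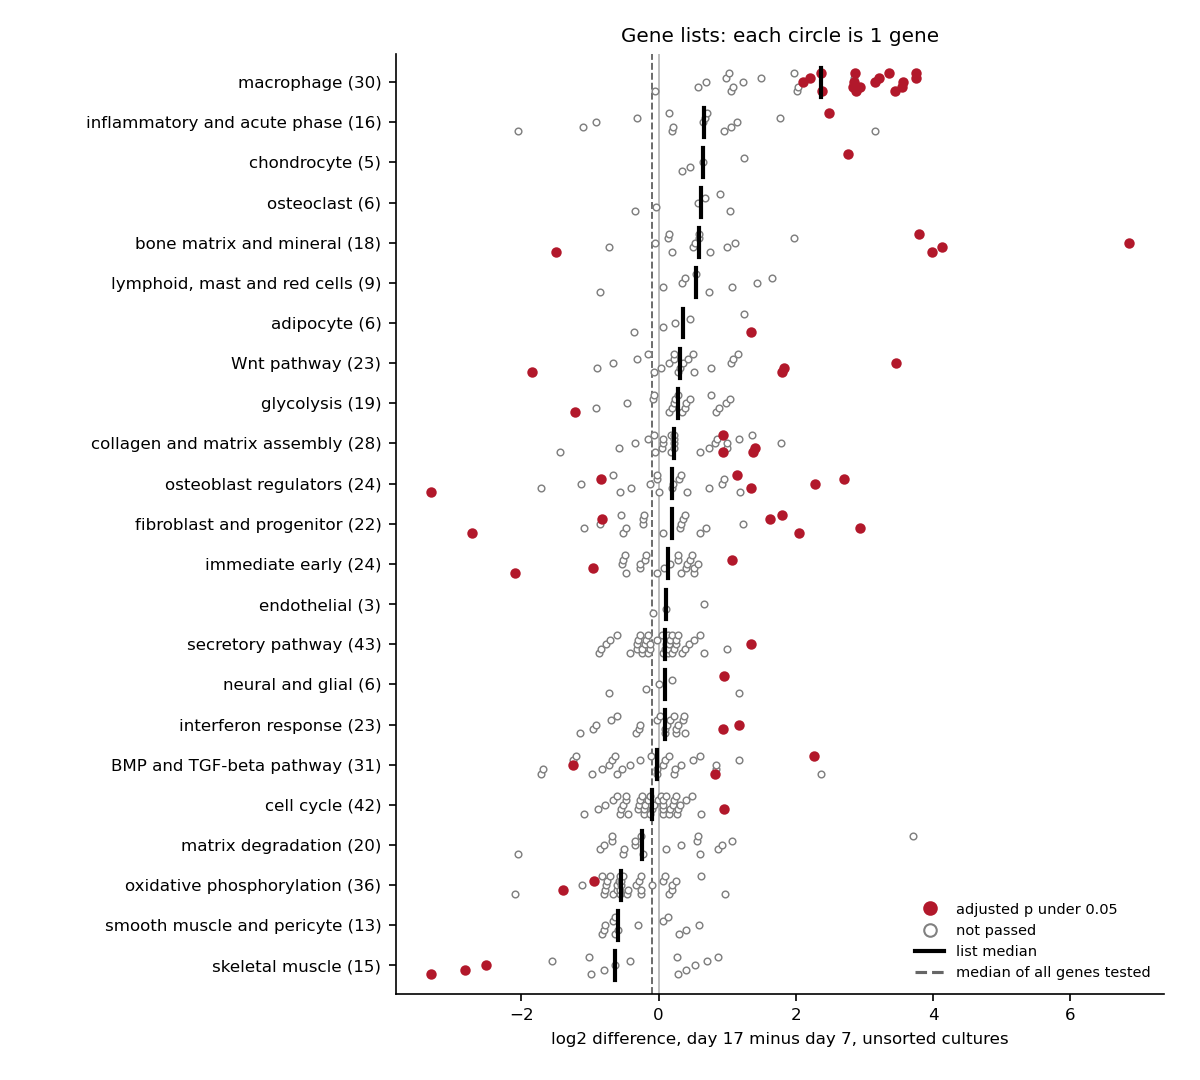
Log2 difference, day 17 minus day 7, of each tested gene in the lists, with filled red points for an adjusted p under 0.05, a black bar for the list's median and a dashed line for the median of all genes (-0.10). The macrophage points lie mostly above 2, with a median of 2.37, and most other lists centre near 0.

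Anxa8, an annexin that binds membrane lipids, fell to 374, 550 and 71.1 at day 17, against 4995, 2165 and 2639 at day 7 (-3.41 ± 0.63, adjusted p = 0.00537). Crabp1, a retinoic acid binding protein, fell to 678, 432 and 136 at day 17, against 3855, 2869 and 3426 at day 7 (-3.15 ± 0.51, adjusted p = 0.0021), and the related Crabp2 fell by 2.82 on the log2 scale. The day 17 value of Exp106 was the lowest for all 3 genes, and each passed without it, at -2.71, -2.60 and -2.64. Mt1, a metal-binding metallothionein, fell to 2761, 8102 and 3271 at day 17, against 32599, 15579 and 14982 at day 7 (-2.22 ± 0.47, adjusted p = 0.0128). Slc7a3, a cationic amino acid transporter, fell by 2.61, the peptidase Prep by 2.45, Abcf2 by 2.27, Gadd45a, a damage-response gene, by 2.10, Glipr2 by 2.09 and Rbpms by 2.05, all on the log2 scale.

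Calls among genes of proliferation and metabolism were no more frequent than the 6.05% of all genes, and the list medians moved with Exp106. Of 42 cell cycle genes, 1 rose (Tk1, thymidine kinase, 0.95, with a second probe set at -0.50) and 0 fell, and 3 rose without Exp106. By array their median against the day 7 mean was 0.31, 0.22 and -0.85 in Exp100, Exp105 and Exp106. Mki67, a marker of dividing cells, had 2223, 2352 and 224 at day 17 and 971, 1590 and 1555 at day 7, so that its difference was -0.30 with Exp106 and 0.76 without it, passing in neither case. Of 36 genes of oxidative phosphorylation, 0 rose and 2 fell (Cycs, cytochrome c, -1.40, and the complex III subunit Uqcrq, -0.94), with a median of -0.55, at -0.20, -0.26 and -0.99 by day 17 array. Without Exp106 0 rose and 5 fell, with a median of -0.24. Of 19 glycolysis genes, 0 rose and 1 fell, the hexokinase Hk1 (-1.22), with a median of 0.29, and 3 rose and 2 fell without Exp106. Of 43 secretory pathway genes 1 rose, Creb3l1, with a median of 0.10 that turned to -0.08 after median centring, and 3 rose and 1 fell without Exp106. Of the calls in this paragraph, that of Creb3l1 alone held in all 6 omissions of 1 unsorted array.

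Of 24 immediate early genes, 1 rose (Atf3, a stress factor, 1.07, with a second probe set at -0.37) and 2 fell (Gadd45a and Ier2, -0.96), and Fos and Egr1 did not pass. These 3 calls made up 12.5% of the list, against 6.05% of all genes. None of them held in all 6 omissions, and that of Atf3 was lost in 12 of 17 alternatives. The class I antigen genes H2-D1 (1.17) and H2-K1 (0.94) were the 2 that rose of 23 interferon response genes (8.7%, near the background share). In that list 2 rose and 2 fell without Exp106. Serping1, the C1 inhibitor, rose to 6930, 8677 and 10344 at day 17, against 1822, 1225 and 1501 at day 7 (2.49 ± 0.28, adjusted p = 0.000142). It was the only passing gene of 16 in the inflammatory list (6.25%, near the background share), where 2 rose and 2 fell without Exp106. Of the 20 matrix degradation genes 0 passed, and 1 rose without Exp106. Mmp12, the macrophage elastase, had the largest difference among them (3.71, adjusted p = 0.106), and a second probe set of it passed (2.51). Its brightest probe set read 4122, 14286 and 16586 at day 17 and 1807, 2065 and 81.2 at day 7. Markers of fat cells (1 of 6, Cebpa, 1.35), nerve and glia (1 of 6, Pmp22, 0.96), vessels (0 of 3) and lymphoid, mast and red cells (0 of 9) gave 2 calls in all, neither of which held in all 6 omissions. Adipoq and Fabp4, defining genes of fat cells, were too dim to test. Without Exp106 2 fat cell genes rose, and Lpl, a lipase, passed only there (1.28, adjusted p = 0.0147, against 1.24 and 0.0768 with it).

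**Figure D4:**
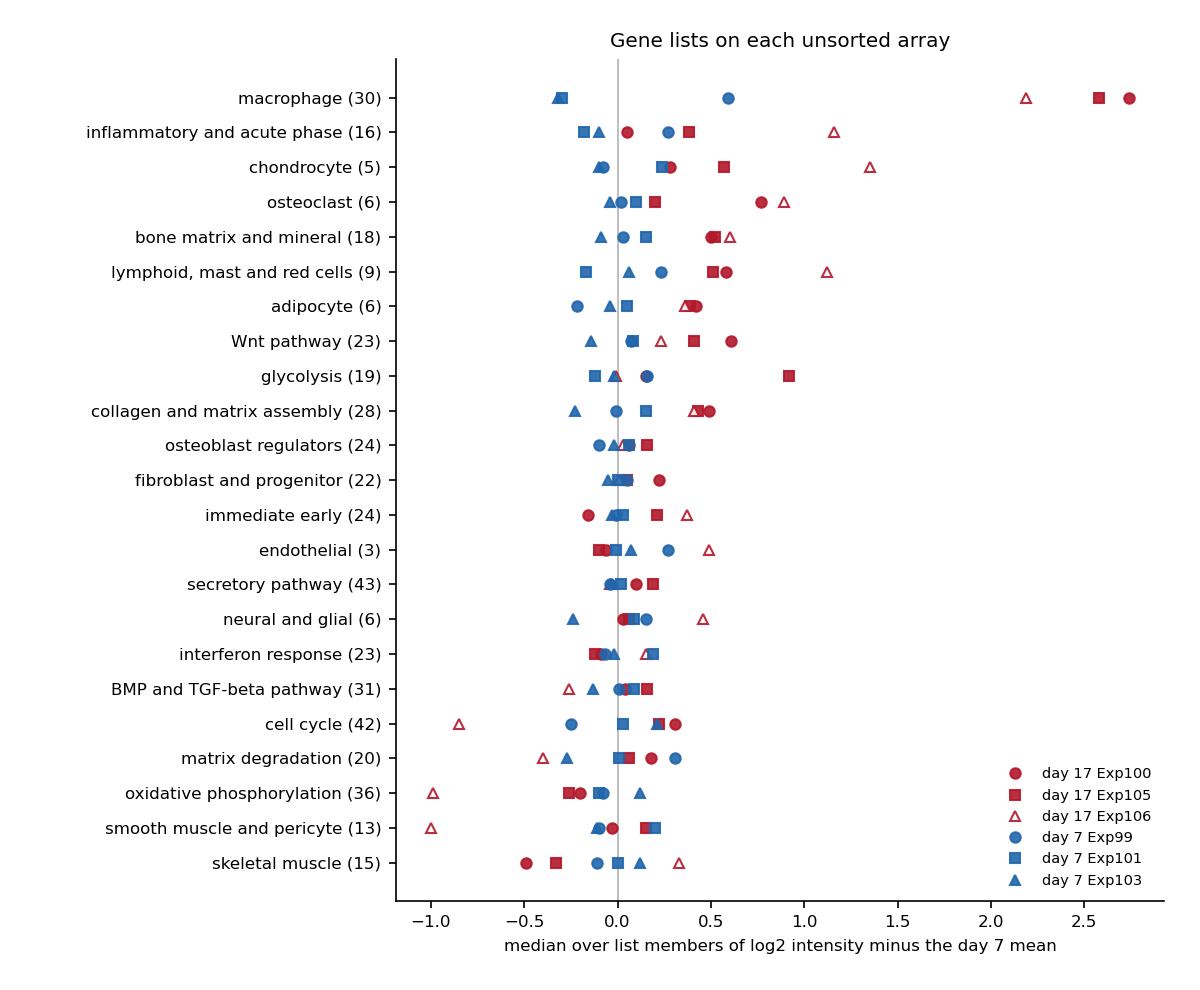
Median over each list's tested genes of the log2 intensity minus the day 7 mean, by unsorted array. Day 17 is in red, day 7 in blue, and open triangles mark Exp106. The macrophage list reads 2.74, 2.58 and 2.19 on the day 17 arrays and 0.59, -0.30 and -0.32 on the day 7 arrays, and the cell cycle list reads -0.85 in Exp106, beside 0.31 and 0.22 on the other day 17 arrays.

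The last comparison asked whether the difference between days in the whole culture was that of the sorted cells of the same experiments. The change in unsorted cells minus the mean change of the GFP-positive and GFP-negative fractions passed for 0 of 7455 probe sets (0%) by limma, where the change between days itself passed for 5.71% in unsorted, 11.6% in the GFP-positive and 2.67% in the GFP-negative fraction. There were 293 at an unadjusted p under 0.05, and the smallest adjusted p was 0.219. The fractions come from the same experiments: with experiment as a random block 11 probe sets passed, with array quality weights 162, and without Exp106 41. A p that misses the threshold does not show that the changes were equal. Ibsp differed between days by 6.86 in unsorted, 6.92 in the GFP-positive and 5.93 in the GFP-negative fraction, and Alpl by 3.99, 4.21 and 3.79. Ctss differed by 3.76 in unsorted, 4.22 in the GFP-positive and 2.82 in the GFP-negative fraction, so that it also rose in both sorted fractions. Its mean intensity went from 264 at day 7 to 8177 at day 17 in GFP-positive cells, and from 2189 to 15186 in GFP-negative cells. For Ctss the larger change therefore did not go with the higher level. Over the 30 macrophage genes the medians were 2.37 in unsorted, 1.24 in the GFP-positive and 1.42 in the GFP-negative fraction. Of them 12 rose and 1 fell in GFP-positive cells, where 4.52% of genes rose and 7.73% fell, and 2 rose and 0 fell in GFP-negative cells, where 1.44% rose and 1.51% fell. Tnnc1 differed by -3.32 in unsorted cells, beside -1.32 in the GFP-positive and -3.24 in the GFP-negative fraction.

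None of the genes with the smallest p for this difference passed, but Irf5, Prss23, Creg1 and Rhoj each passed with the random block, with array quality weights and without Exp106. Irf5 is a factor of myeloid cells. It had 2053, 1727 and 2274 at day 17 and 621, 711 and 610 at day 7 in unsorted cells. It rose by 1.59 ± 0.21 there (adjusted p = 0.000482), beside -0.21 in the GFP-positive and 0.51 in the GFP-negative fraction, a difference of changes of 1.44 ± 0.26 (adjusted p = 0.219). Creg1, a lysosomal glycoprotein, rose by 1.52 in unsorted cells, beside -0.78 in the GFP-positive and 0.18 in the GFP-negative fraction (difference of changes 1.82, adjusted p = 0.256). For Prss23, Gbp2 and Rhoj the difference of changes was positive because GFP-positive cells were far lower at day 17 (-2.70, -3.32 and -4.63), beside 0.24, -0.70 and -1.15 in unsorted cells. On the other side Ap5s1, Kcnn1, Ndrg4, Sema6c and Rhd had differences of changes of -1.64, -1.49, -0.91, -1.67 and -2.08, with adjusted p values of 0.876 or above.

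**Figure D5:**
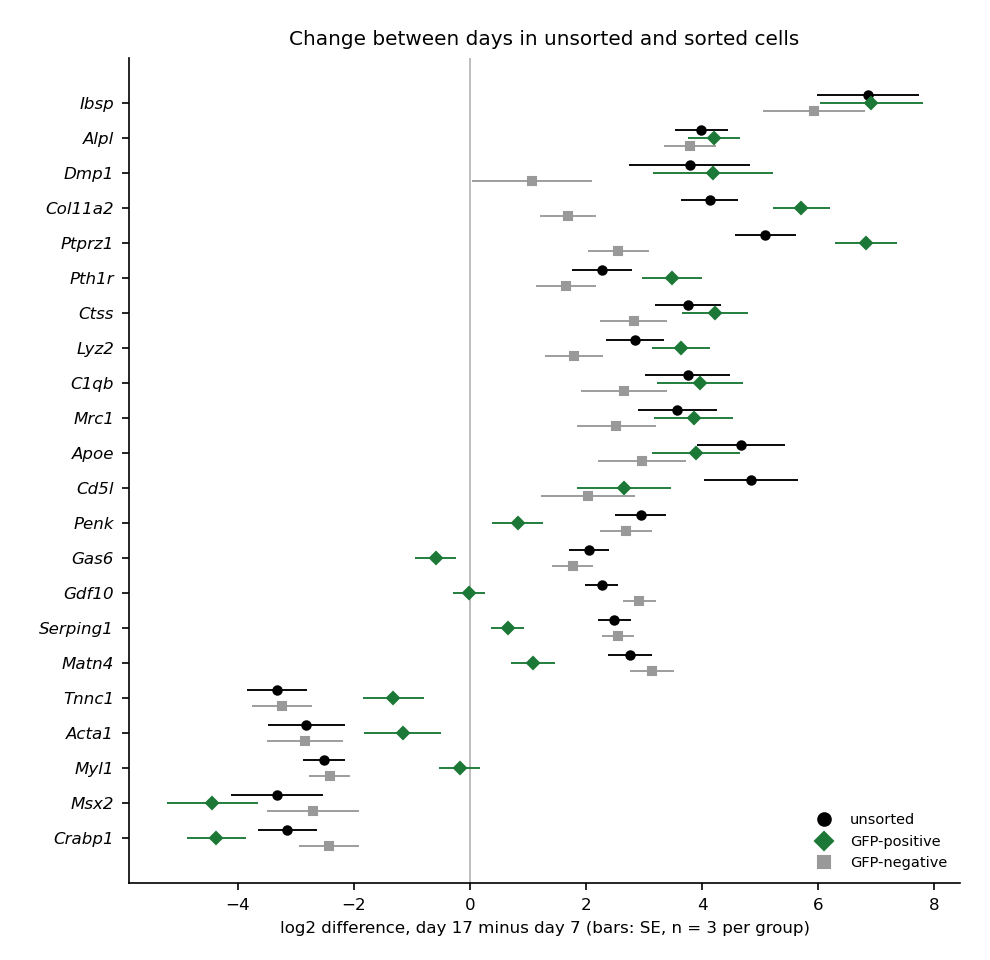
Log2 difference, day 17 minus day 7, with its SE, in unsorted, GFP-positive and GFP-negative cells of the same experiments. Ibsp and Alpl differ by similar amounts in the 3 fractions, while Gdf10 reads 2.27 in unsorted, -0.02 in the GFP-positive and 2.92 in the GFP-negative fraction.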

How the data were processed

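Total RNA had been hybridised to Affymetrix U74 arrays, and the authors deposited 1 intensity per probe set and array, as whole numbers that go down to 10. How these intensities were summarised and scaled, and any detection calls, are not given in the sources used here. Array A holds 12422 probe sets, of which 10833 name 1 gene, 396 several and 1193 none by the platform annotation. The 18 A arrays were quantile-normalised and tested as log2(intensity + 32) in 6 groups with limma 3.58.1 (lmFit and eBayes with a variance trend, R 4.3.3). A probe set was tested where 3 or more arrays showed it above their own median, which left 7455, and p-values were adjusted by Benjamini-Hochberg over all of them. A gene was represented by its brightest probe set that names it alone.

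Genes were named where they were among the 15 largest passing rises or falls without overlap between groups, among the 3 largest passing changes of a list, or in a set of 23 bone, macrophage, muscle and growth genes. Further list members were named after their values were seen. The comparison, gene lists and rules were chosen with earlier results of these data known, so they give no independent support. Lists have no test of their own. Alternatives changed the pseudocount, filter, scaling, variance model, array weights, blocking and arrays. Arrays B and C were not used here. The number of arrays limits the precision. The fits were tested on simulated data.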

Additional observations from a re-analysis of the deposited data

How the results depend on the processing

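The count of probe sets that passed for day 17 minus day 7 was 426. It was 214 when only the 6 unsorted arrays were fitted, 1306 with array quality weights (563 higher and 743 lower, with weight 0.115 for the unsorted array of Exp106) and 930 without the 3 arrays of Exp106 (427 higher and 503 lower). Leaving out 1 unsorted array at a time gave 144 to 402. The count moved by over 1.5 times without the day 17 arrays of Exp100 (259) or Exp106 (198) and without the day 7 arrays of Exp99 (178), Exp101 (182) or Exp103 (144), with fewer arrays in the fit. It lay between 311 and 458 under the other pseudocounts, filters and scalings, without the variance trend, with a minimum 2-fold change and with experiment as a random block (380). The share of higher calls was 60.6% with no filter and 66.2% on the deposited scale. No paired analysis was possible because each experiment was sampled at 1 day only, which holds for day 17 minus day 7. The change in unsorted minus sorted cells lies within experiments, and there the count was 0, against 162 with array quality weights, 11 with experiment as a random block and 41 without Exp106, where the cause was not tested. Of 58 named genes that passed, 28 lost the call in none of up to 17 alternatives, 14 lost it in more than 5, and 0 changed sign. Among genes that did not pass, Sparc turned to -0.05 after median centring. Egr1 ran from -0.57 to 0.03 over single-array omissions. Mki67 turned to 0.60 with array weights and 0.76 without Exp106 (omissions -0.85 to 0.76), and Top2a to 0.30 and 0.35 (omissions -0.61 to 0.35). Myod1 turned to -0.26 and -0.34 (omissions -0.33 to 0.82), Ckm to -0.18 and -0.25 (omissions -0.25 to 0.57) and Myh4 to -0.03 without Exp106 (omissions -0.03 to 1.38). Mylpf ran from -1.12 to 0.12 over omissions. The list medians for cell cycle, BMP and TGF-beta, interferon, secretory, immediate early, endothelial, neural and matrix degradation genes changed sign in at least 1 alternative. With no detection calls, values of dim probe sets are the least certain.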

Other observations

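The following 4 gene groups were put together after the values were seen, so their counts describe and support nothing. Over all genes 3.16% rose and 2.89% fell, and without Exp106 6.13% rose and 7.66% fell. Of 32 genes of serine synthesis and amino acid supply tested, 0 rose and 9 fell, with a median of -0.95, and 18 fell without Exp106. Psat1, an enzyme of serine synthesis, had 3434, 7891 and 4111 at day 17 and 14864, 21681 and 19198 at day 7 (-1.92 ± 0.29, adjusted p = 0.00164). Psph, the enzyme that completes that pathway, fell by 1.69 on the log2 scale, and the transfer RNA ligases Sars, Nars and Iars fell by 1.36, 1.18 and 0.96. Eif4ebp1, a translation inhibitor, fell as well (-1.59). Trib3, a target of Atf4, did not pass (-2.12, adjusted p = 0.297) and had 236 in Exp100, beside 2788 and 2711 in the other day 17 arrays and 4726 to 6898 at day 7. Psat1 and Slc7a3 were the 2 genes of this group that passed in every single-array omission.

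Genes of protein folding in the cytosol and mitochondria had 8 falls and 1 rise among 25 (12 and 1 without Exp106) and a median of -0.88. Hspa9, the mitochondrial Hsp70, had 3680, 6731 and 5356 at day 17 and 17993, 17650 and 17450 at day 7 (-1.79 ± 0.27, adjusted p = 0.00162). Hsp90aa1 fell by 1.45, Hsph1 by 1.39 and Lonp1, a mitochondrial protease, by 1.30 on the log2 scale. The small heat shock gene Hspb2 rose by 1.40. By array the median of this group was -0.44, -0.54 and -1.33 in Exp100, Exp105 and Exp106.

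Complement genes rose for 10 of 15, with 1 fall and a median of 1.68, among them the anaphylatoxin receptors C3ar1 (2.29) and C5ar1 (1.63) and properdin (Cfp, 1.68). Clu, an inhibitor of the terminal complex, was the fall (-0.94), and missed the threshold without Exp106 (-0.79, adjusted p = 0.0516). Of 15 genes of cholesterol and lipoprotein handling, 7 rose and 1 fell, with a median of 1.24 (8 and 1 without Exp106). Abca1, which exports cholesterol, had 4606, 5041 and 5250 at day 17 and 1275, 1191 and 668 at day 7 (2.27 ± 0.42, adjusted p = 0.00567). Lipa, the lysosomal lipase, rose by 1.71 in unsorted cells, beside -0.44 in the GFP-positive and 0.17 in the GFP-negative fraction. Ch25h, a sterol hydroxylase, fell by 1.48 on the log2 scale. Both groups hold genes that macrophages express, and summed macrophage intensity was 274916 to 327527 at day 17 and 46003 to 80636 at day 7. The part of macrophages in these rises was not tested.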
